A study of Homo sapiens with 6 samples.

Results

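The genes described here encode the proteins of the mitochondrial ribosome that carry an MRPL or MRPS symbol. They were taken as every protein-coding gene whose symbol begins with MRPL or MRPS followed by a digit, after the Ensembl identifiers of the deposited tables had been matched to symbols. This rule, which uses no measured value, found 78 genes among the 50868 identifiers listed, of which 49 are named for the large subunit (MRPL) and 29 for the small subunit (MRPS). They lie on 21 chromosomes.

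Mitochondria keep a ribosome of their own, which translates the few membrane proteins of the respiratory chain that mitochondrial DNA encodes. Its ribosomal RNAs come from mitochondrial DNA, whereas all of its proteins are encoded in the nucleus, made in the cytosol and imported. Many of the proteins descend from bacterial ribosomal proteins and others exist only in mitochondria, so building the particle needs transcripts from many unlinked nuclear genes together with RNA made inside the organelle. Symbols do not always tell the place of a protein: those of MRPS30 and MRPS18A sit in the large subunit, and that of MRPS36 belongs to the oxoglutarate dehydrogenase complex. Genes are grouped below by symbol.

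The study compared cells of a non-small cell lung cancer line, labelled A549, after transfection with a scramble control siRNA or with an siRNA against SF3B4, which encodes a subunit of the SF3b complex of the U2 snRNP that recognises the branch site during pre-mRNA splicing. Each group had 3 libraries from total RNA, labelled as biological replicates, and no source used here gives the siRNA sequence, its dose or when cells were harvested. Each deposited table gives FPKM, the fragments per kilobase of transcript scaled to the mapped fragments of the library. The steps between low values put the depth at 17510532 to 18529776 fragments a library, so a level of 1 FPKM stood for 17.5 to 18.5 fragments per kilobase of transcript.

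The targeted transcript, SF3B4, measured 88.6, 92.0 and 93.8 FPKM after control siRNA and 22.0, 17.7 and 22.3 FPKM after SF3B4 siRNA, or 22.6% of the control mean. All SF3B4 siRNA libraries were far below every control library. For replicates 2 and 3 of the SF3B4 siRNA group, the genotype label names SF3B5 or SF3B6 instead, while title and treatment name SF3B4, and the titles were followed. SF3B6 was at 39.1 to 43.3 FPKM in the SF3B4 siRNA libraries against 42.5 to 48.7 in the control libraries, and SF3B5 was at 189 to 207 FPKM in all SF3B4 siRNA libraries against 393 to 453 in the controls. The deposited column headers carry the name of another lung adenocarcinoma line, H1650. AKR1C1, AKR1C2, ALDH1A1 and ALDH3A1, enzymes known to be high in A549, were at 0.107 FPKM or less in every library, whereas KRT7, KRT8, KRT18 and KRT19 were at 221 FPKM or more, so the line is named here only as its labels name it.

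Most mitochondrial ribosomal protein genes did not pass the test after SF3B4 siRNA, and those that passed changed in both directions. Of the 76 genes that reached 1 FPKM in at least 3 of the 6 libraries, 14 rose and 7 fell at an adjusted p under 0.05 (limma on log2 of FPKM + 0.1, adjusted over all 9685 genes tested), which is 27.6%, beside 34.1% of all genes tested. In the large subunit 8 of 48 tested genes rose and 5 fell, and in the small subunit 6 of 28 rose and 2 fell. Among all genes tested 16% rose and 18.1% fell. The share that rose was thus 16.7% in the large and 21.4% in the small subunit, near the share among all genes, and the share that fell was 10.4% and 7.14%. No member passed the test with a change of 2-fold or more, as 392 of all tested genes did.

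The median log2 fold change was -0.02 over the large subunit genes and 0.09 over the small subunit genes, against -0.00 over all genes tested. The sign of the large subunit median is not fixed: it was 0.02 when each library was centred on its median gene. That centring also moved the median over all genes tested, to 0.036, which is above the large subunit median. With it 12 large subunit genes rose and 4 fell. Among all 9685 genes tested 1803 rose and 1579 fell with it, against 1546 and 1752 without it. Leaving out 1 library also moved the counts. The number of large subunit genes that rose was 5 without control siRNA replicate 2, 5 without SF3B4 siRNA replicate 1 and 4 without SF3B4 siRNA replicate 3. The number of small subunit genes that rose was 2 without SF3B4 siRNA replicate 1 and 3 without SF3B4 siRNA replicate 3. Counts over all genes tested fell as well. Of these, 1235 rose without control siRNA replicate 2, 1116 without SF3B4 siRNA replicate 1 and 1094 without SF3B4 siRNA replicate 3, against 1546 with all 6 libraries. The p-values measure the spread between libraries of a group, and no source says whether these came from separate transfections.

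**Figure D1:**
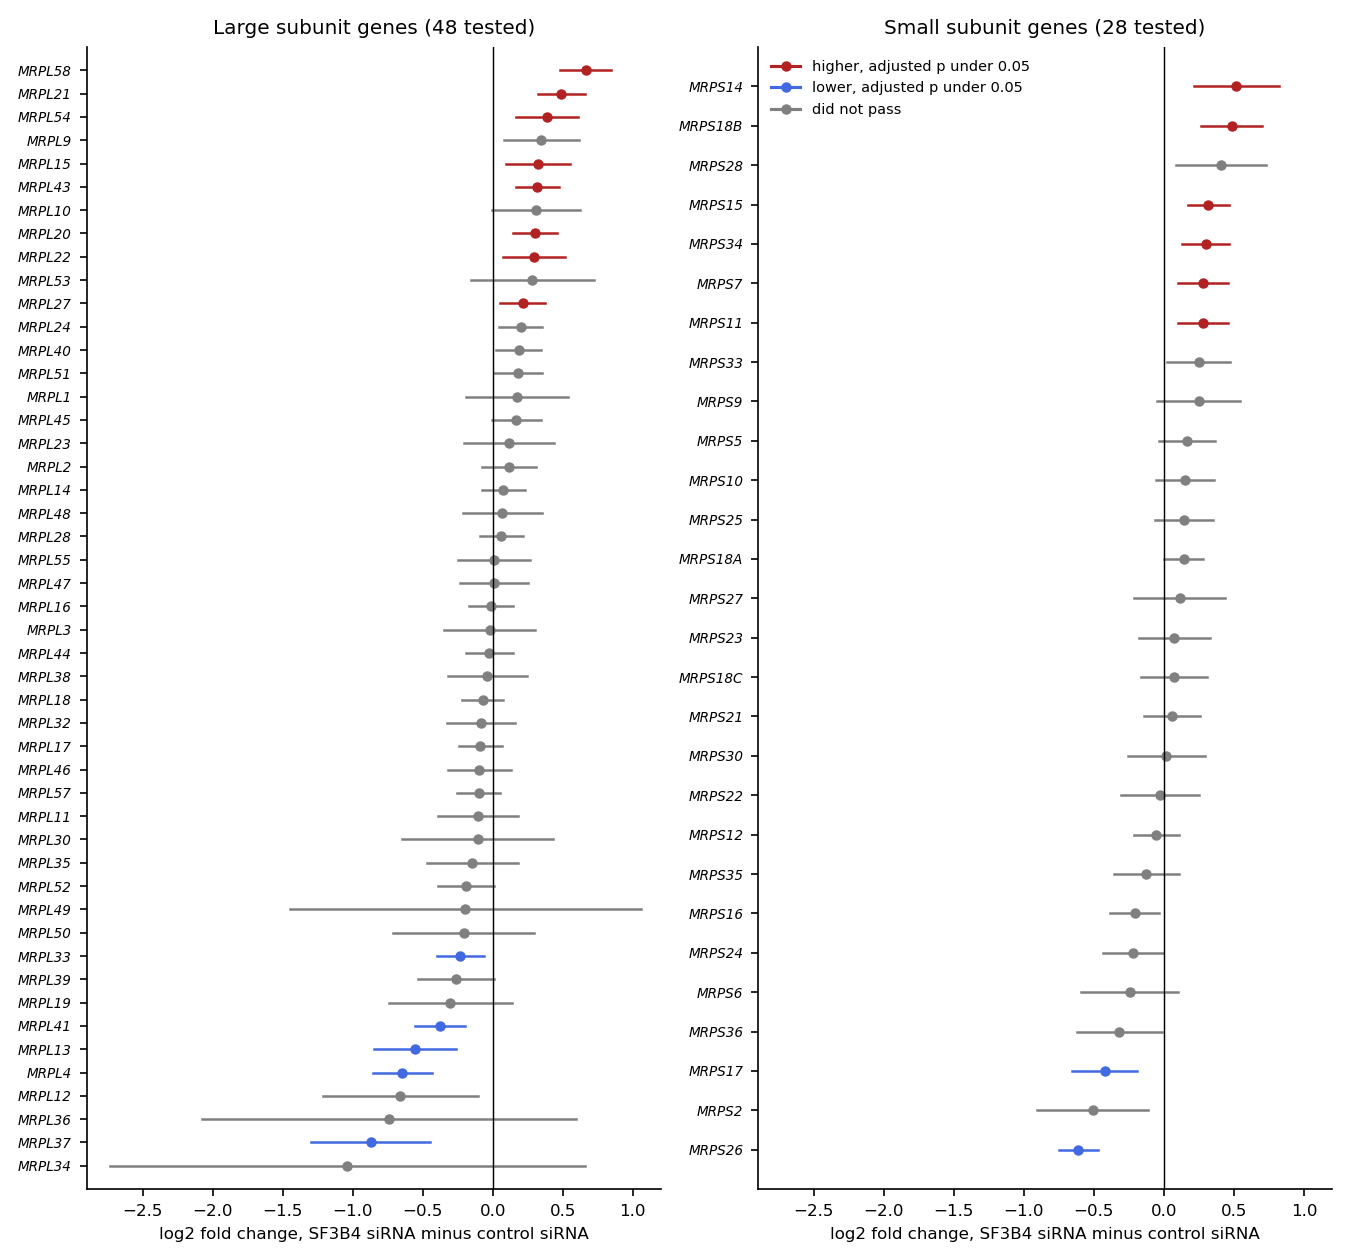
Log2 fold change (SF3B4 siRNA minus control siRNA, x axis) of each tested large subunit gene (left) and small subunit gene (right), with bars for the 95% confidence interval from limma and 3 libraries in each group. Red genes rose and blue genes fell at an adjusted p under 0.05, grey genes did not pass, and the widest intervals belong to MRPL34, MRPL36 and MRPL49.

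The start regions of these genes were searched for binding motifs. RefSeq promoters (GRCh38.p14, 250 bases before to 50 after the start) were matched for 69 of the 78 genes; MRPL10, MRPL13, MRPL15, MRPL2, MRPL21, MRPL23, MRPL35, MRPS28 and MRPS36 were not matched. Both strands were searched for a core bound by ETS factors (CCGGAAG), a site of the zinc finger factor YY1 (AAGATGGCG) and a core of NRF1, a factor known for nuclear genes of the respiratory chain (CGCATGCGC). The ETS core ends with the 3 letters that begin the YY1 site, so the sites can overlap; 4 members held both and in none of them did they overlap. A match is only a match of letters. The windows below, from 100 bases before to 50 after the start, belong to the gene with the largest rise and the gene with the largest fall past the test in each subunit, with motif matches in capitals.
MRPL58, chr17:75012570-75012719, + strand: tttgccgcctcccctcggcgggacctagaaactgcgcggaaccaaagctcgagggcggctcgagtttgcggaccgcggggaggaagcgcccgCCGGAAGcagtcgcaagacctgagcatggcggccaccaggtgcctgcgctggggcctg
MRPL37, chr1:54200067-54200216, + strand: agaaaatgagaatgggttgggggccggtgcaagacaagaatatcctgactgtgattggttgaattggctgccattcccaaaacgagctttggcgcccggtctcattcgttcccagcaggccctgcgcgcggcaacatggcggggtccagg
MRPS14, chr1:175023376-175023525, - strand: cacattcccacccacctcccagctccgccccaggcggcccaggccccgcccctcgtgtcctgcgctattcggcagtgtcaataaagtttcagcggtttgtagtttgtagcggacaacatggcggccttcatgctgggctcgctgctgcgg
MRPS26, chr20:3045952-3046101, + strand: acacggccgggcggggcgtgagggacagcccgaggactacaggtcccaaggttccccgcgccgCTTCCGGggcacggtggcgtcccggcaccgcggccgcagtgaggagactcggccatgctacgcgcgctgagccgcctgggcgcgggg

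The ETS core starts 8 bases before the start of MRPL58, which rose, and lies on the reverse strand 37 bases before the start of MRPS26, which fell. MRPL58 holds a further match on the reverse strand 193 bases before its start, outside the window shown. None of the 3 motifs is in the promoter of MRPS14, which rose, or of MRPL37, which fell. Over the family, 29 of 69 promoters (42.0%) held the ETS core, 17 of 42 in the large and 12 of 27 in the small subunit, against 20.6% of the promoters of tested protein-coding genes and 14.4% of 15220 promoters of protein-coding genes. The YY1 site was in 13 members (18.8%), against 4.55% and 2.81%, and the NRF1 core in 3 (4.35%), against 3.71% and 2.75%. Most YY1 matches of members lay after the start, from position 7 (MRPL38) to position 36 (MRPL22). Only those of MRPL32, MRPL36 and MRPL52 lay before it. Among 69 cytosolic ribosomal protein promoters the ETS core was in 33.3% and the YY1 site in 8.70%, and 40 of the 69 members lacked the ETS core. The median GC content of the promoters was 60.3% in members and 66.3% in tested genes. Among members with a matched promoter, the ETS core was held by 6 of the 12 that rose, by 2 of the 6 that fell and by 20 of the 49 tested that did not pass.

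Transcript levels of the family spanned a wide range. The control mean ran from 0.461 FPKM (MRPL42) to 134.8 FPKM (MRPL12), a 292.9-fold range, with a median of 12.7 FPKM over the large and 8.60 FPKM over the small subunit genes. For 60 of the 78 genes it exceeded the median of all tested genes, 4.87 FPKM. Although the proteins assemble into 1 particle, 4 genes lay above 100 FPKM and 18 below 5 FPKM. Across the 76 tested genes the log2 mean level and the log2 fold change were unrelated in description (Pearson r -0.04, Spearman rho 0.06), over points that share the same 6 libraries.

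Besides MRPL12, the most abundant large subunit genes were MRPL14, at 110, 115 and 126 FPKM in control and 119, 124 and 126 FPKM in SF3B4 siRNA libraries, and MRPL41, described below. In the small subunit MRPS24, a homologue of bacterial S3 at the entrance of the mRNA channel, was at 103, 102 and 119 FPKM and then 101, 84.4 and 91.4 FPKM. MRPS18A, one of 3 homologues of bacterial S18, was at 69.98, 73.4 and 75.8 FPKM and then 81.2, 82.7 and 77.6 FPKM. MRPS12, a protein of the decoding centre, was at 58.8, 59.7 and 64.8 FPKM and then 60.5, 55.3 and 60.6 FPKM. None of these 4 passed the test, although the groups did not overlap for MRPS18A, which was higher (limma adjusted p = 0.11), or for MRPS24, which was lower (0.099). Summed over its genes, the large subunit made up 0.393% of all FPKM in control and 0.377% in SF3B4 siRNA libraries, and the small subunit 0.226% and 0.231%. The large subunit sum averaged 1084 FPKM in control and 1024 FPKM in SF3B4 siRNA libraries. MRPL12 alone, which shares exons with a gene model described below, made up 134.8 and 88.6 FPKM of these.

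A pair of members did not reach the level set for testing. MRPL42 was at 0.460, 0.501 and 0.421 FPKM in control and 0.500, 0.550 and 0.470 FPKM in SF3B4 siRNA libraries. MRPS31 was at 0.490, 0.504 and 0.492 FPKM and then 0.629, 0.551 and 0.817 FPKM. Its pseudogene MRPS31P4 averaged 59.6% of the level of MRPS31, and how the counting treated reads shared by both copies was not tested. Among the other members, MRPL36 had the pseudogene with the highest relative level, MRPL36P1, at 11.3% of its parent.

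By place in the large subunit, few genes of each region passed the test. Around the peptidyl transferase centre, where peptide bonds form, MRPL27 rose and MRPL2, MRPL3 and MRPL16 did not pass. Around the exit tunnel, through which the new chain leaves, MRPL22 rose and MRPL4, described below, fell, while MRPL17, MRPL23, MRPL24, MRPL45 and MRPL47 did not pass. MRPL24 came near, at 51.5, 56.5 and 53.5 FPKM in control and 65.0, 61.7 and 59.0 FPKM in SF3B4 siRNA libraries (limma adjusted p = 0.051). The groups of MRPL24 did not overlap, and the gene passed after rescaling to TPM (adjusted p = 0.033), after centring on the median gene (0.042) and among genes whose mean reached 5 FPKM (0.043), within a range of up to 1 over the 16 alternatives. None of the stalk proteins MRPL10, MRPL11 and MRPL12, which recruit translation factors, passed. In the central protuberance 1 of 5 genes passed, MRPL58.

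MRPL58 had the largest rise of the large subunit. Its protein (ICT1) is a peptidyl-tRNA hydrolase that became a structural part of the mitochondrial ribosome and can free stalled chains. It was at 12.9, 11.6 and 12.6 FPKM in control and 20.53, 18.4 and 20.2 FPKM in SF3B4 siRNA libraries. Every SF3B4 siRNA library lay well above every control library, and the log2 fold change was 0.66 ± 0.08 (limma adjusted p = 0.00087; errors after ± are standard errors). The other tested genes of the central protuberance, MRPL38, MRPL40, MRPL46 and MRPL48, had log2 fold changes between -0.10 and 0.19.

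MRPL21, a homologue of bacterial L21, was at 8.50, 8.62 and 8.22 FPKM in control and 12.2, 11.5 and 12.0 FPKM in SF3B4 siRNA libraries. The libraries were tightly grouped and the groups lay apart (log2 fold change 0.49 ± 0.07, limma adjusted p = 0.0021). MRPL54, a mitochondria-specific protein, was at 17.8, 20.7 and 22.5 FPKM and then 26.9, 25.4 and 27.3 FPKM (0.39 ± 0.09, limma adjusted p = 0.017). The groups of MRPL54 did not overlap, but its call was lost without SF3B4 siRNA replicate 1 (adjusted p = 0.051) or 3 (adjusted p = 0.054).

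The remaining rises of the large subunit were smaller. MRPL43, another mitochondria-specific protein, rose from 12.5 to 13.03 FPKM in control to 15.5 to 16.3 FPKM in SF3B4 siRNA libraries, and MRPL20, a homologue of bacterial L20, from 13.5 to 14.5 FPKM to 16.7 to 17.6 FPKM. In both, all SF3B4 siRNA libraries were above all control libraries, and both calls held with any 1 library left out. MRPL15, MRPL22 and MRPL27, homologues of bacterial L15, L22 and L27, passed with log2 fold changes of 0.32, 0.30 and 0.21 (limma adjusted p = 0.037, 0.045 and 0.046). These 3 calls rested on the full set of libraries. Without control siRNA replicate 2 or 3 or SF3B4 siRNA replicate 2 or 3, the adjusted p of MRPL15 was 0.089 to 0.11. Leaving out any library but control siRNA replicate 1 took that of MRPL22 to between 0.081 and 0.13, and leaving out any of the 6 took that of MRPL27 to between 0.065 and 0.14.

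The largest fall past the test was that of MRPL37, a mitochondria-specific protein. MRPL37 was at 57.6, 57.7 and 62.2 FPKM in control and 43.3, 25.8 and 30.2 FPKM in SF3B4 siRNA libraries. All SF3B4 siRNA libraries were below the controls, and they differed among themselves more than the controls did (log2 fold change -0.87 ± 0.18, limma adjusted p = 0.010). MRPL4, a homologue of bacterial L4, which lines the exit tunnel, was at 13.01, 12.6 and 14.9 FPKM and then 8.46, 8.17 and 9.08 FPKM. The MRPL4 groups lay apart with little spread (-0.65 ± 0.09, limma adjusted p = 0.0018).

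MRPL13, a homologue of bacterial L13, was at 9.62, 9.26 and 7.41 FPKM in control and 6.46, 5.29 and 5.98 FPKM in SF3B4 siRNA libraries (log2 fold change -0.56 ± 0.13, limma adjusted p = 0.012). MRPL41, a mitochondria-specific protein and the third most abundant transcript of the large subunit, was at 96.6, 109 and 109 FPKM and then 83.5, 74.6 and 83.9 FPKM (-0.38 ± 0.08, limma adjusted p = 0.0080). Both falls kept their call with any 1 library left out, and in neither did the groups overlap. MRPL33, a homologue of bacterial L33, was at 19.9, 20.7 and 21.4 FPKM and then 18.8, 17.1 and 16.9 FPKM (-0.23 ± 0.07, limma adjusted p = 0.043). This smallest fall was lost without control siRNA replicate 2 or 3 or SF3B4 siRNA replicate 2 or 3 (adjusted p = 0.093 to 0.14), and 21.1% of the annotated exon bases of MRPL33 are shared with BABAM2, whose level rose.

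**Figure D2:**
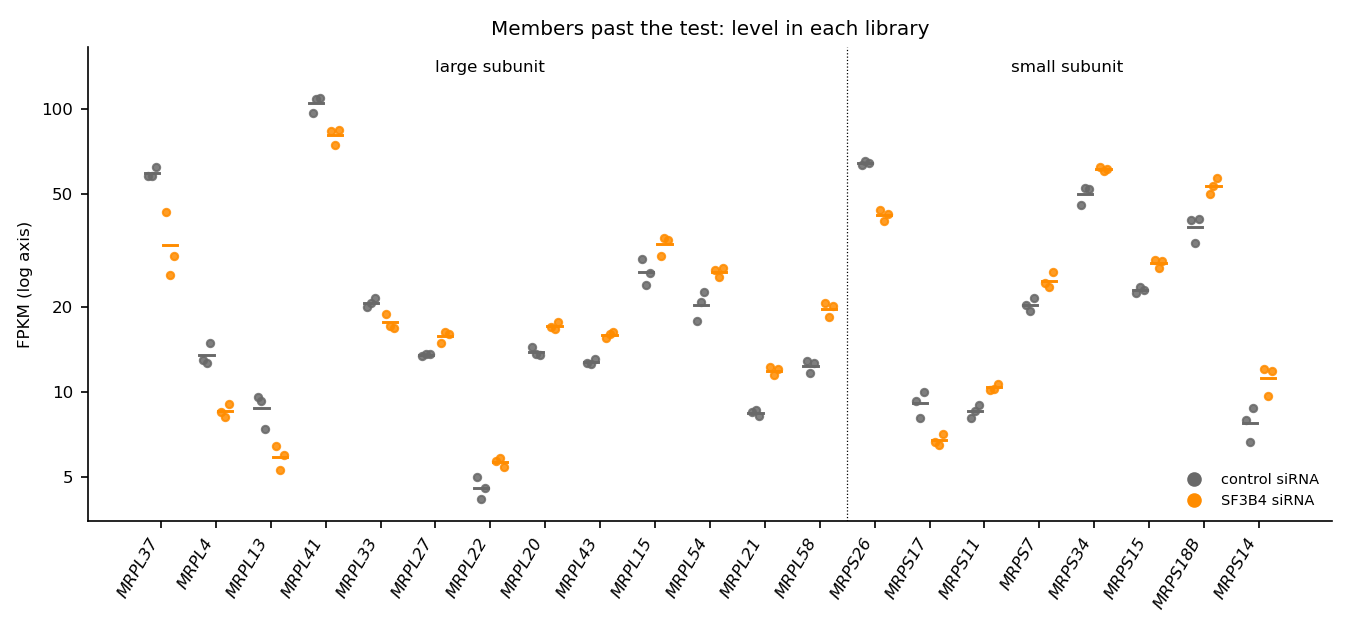
FPKM (y axis, log scale) in each library for the 13 large subunit and 8 small subunit genes that passed the test, with a short bar at each group mean. Dots are single libraries, grey for control siRNA and orange for SF3B4 siRNA, and MRPL37 shows the widest spread among its SF3B4 siRNA libraries.

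In the small subunit MRPS14 and MRPS18B rose most. MRPS14, a homologue of bacterial S14 in the head of the subunit, was at 7.94, 6.66 and 8.78 FPKM in control and 12.0, 9.68 and 11.8 FPKM in SF3B4 siRNA libraries. The groups of MRPS14 did not overlap (log2 fold change 0.52 ± 0.13, limma adjusted p = 0.018), but the call was lost without SF3B4 siRNA replicate 1 (adjusted p = 0.058) or 3 (adjusted p = 0.059). MRPS18B, a further homologue of bacterial S18, was at 40.4, 33.5 and 40.8 FPKM and then 49.99, 53.5 and 56.8 FPKM. MRPS18B kept its call with any 1 library left out (0.48 ± 0.09, limma adjusted p = 0.0065), while the third S18 homologue, MRPS18C, was at 4.21 to 4.91 FPKM and then 4.36 to 4.99 FPKM with overlapping groups.

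MRPS15, a homologue of bacterial S15, was at 22.3, 23.5 and 22.9 FPKM in control and 29.1, 27.5 and 29.02 FPKM in SF3B4 siRNA libraries (log2 fold change 0.32 ± 0.06, limma adjusted p = 0.0074). MRPS34, a mitochondria-specific protein, was at 45.6, 52.3 and 52.1 FPKM and then 62.3, 60.4 and 61.3 FPKM (0.30 ± 0.07, limma adjusted p = 0.015). Both rose with groups that did not overlap, and the call of MRPS34 was lost without SF3B4 siRNA replicate 1 (adjusted p = 0.053). MRPS7, at the mRNA path, and MRPS11, on the platform beside it, rose by 0.28 on the log2 scale each (limma adjusted p = 0.026 and 0.027). The MRPS7 call was lost without control siRNA replicate 1 or 2 or SF3B4 siRNA replicate 1 or 3 (adjusted p = 0.050 to 0.092). The MRPS11 call was lost without control siRNA replicate 2 or any 1 SF3B4 siRNA library (adjusted p = 0.062 to 0.094).

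MRPS26, a mitochondria-specific protein, showed the largest fall of the small subunit. It was at 63.1, 65.4 and 64.5 FPKM in control and 43.7, 40.2 and 42.5 FPKM in SF3B4 siRNA libraries. The spread within groups was small against the gap between them, and the adjusted p was the smallest of the family (log2 fold change -0.61 ± 0.06, limma adjusted p = 0.00045). MRPS17, a homologue of bacterial S17, was at 9.30, 8.09 and 9.97 FPKM and then 6.67, 6.496 and 7.08 FPKM (-0.42 ± 0.10, limma adjusted p = 0.014). The groups of MRPS17 did not overlap, but the gene shares 21.8% of its exon bases with a same-strand gene, AC092647.5. That gene was at 2.76 to 6.84 FPKM in control and 1.75 to 4.11 FPKM in SF3B4 siRNA libraries. The summed level of both was 16.1, 10.85 and 15.2 FPKM and then 8.42, 8.73 and 11.2 FPKM. In the sum the groups overlapped (exact permutation test, two-sided p = 0.2, where 3 against 3 libraries cannot go below 0.1). Along the mRNA path and decoding centre, MRPS2, MRPS5, MRPS12 and MRPS24 did not pass. MRPS2 was at 12.8, 13.4 and 20.1 FPKM and then 11.2, 10.2 and 10.4 FPKM, with groups that did not overlap (log2 fold change -0.51, limma adjusted p = 0.053). It passed without control siRNA replicate 1 (-0.63, adjusted p = 0.039) or 3, the highest library (-0.30, adjusted p = 0.049), and among genes whose mean reached 5 FPKM (adjusted p = 0.047), within a range of up to 0.37 over the 16 alternatives.

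Of the 21 calls in the family, 12 held whichever 1 library was left out, and all 21 kept their direction under each of the 16 alternative settings. The alternatives included other scalings, filters and pseudocounts. Against a minimum fold change of 1.2, MRPL58, MRPL4 and MRPS26 remained.

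Some members jumped between libraries of a group at places where genes share exons. MRPL12, a stalk protein also described as a partner of the mitochondrial RNA polymerase (chr17:81703357-81707526, GRCh38), was at 123, 139 and 142 FPKM in control and 125, 70.02 and 70.4 FPKM in SF3B4 siRNA libraries. The low values were those of SF3B4 siRNA replicates 2 and 3. In those same libraries AC139530.2, a gene model that runs from MRPL12 through its neighbour SLC25A10 and shares 68.2% of the exon bases of MRPL12, was at 40.9 and 43.2 FPKM, and it was listed at 0 in the other 4 libraries.

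The summed level of MRPL12 and AC139530.2 was 123, 139 and 142 FPKM in control and 125, 111 and 114 FPKM in SF3B4 siRNA libraries (exact permutation test, two-sided p = 0.2, where 3 against 3 libraries cannot go below 0.1). For MRPL12 alone the log2 fold change was -0.66 ± 0.23 (limma adjusted p = 0.069). Without SF3B4 siRNA replicate 1 it was -0.94 (adjusted p = 0.00082) and after quantile normalization -0.73 (adjusted p = 0.043). It passed in these 2 of the 16 alternatives, over which the adjusted p ranged up to 0.30. SLC25A10, the mitochondrial dicarboxylate carrier, fell from 24.1, 24.4 and 24.9 FPKM to 19.6, 8.98 and 13.5 FPKM (limma adjusted p = 0.041), a call lost without any 1 control library or SF3B4 siRNA replicate 3 (adjusted p = 0.075 to 0.10). How the authors' counting divided fragments between these models was not tested.

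MRPL53 and CCDC142, which share 45.2% of the exon bases of MRPL53, differed in opposite directions in a control library. MRPL53 was at 35.3, 35.0 and 22.9 FPKM in control libraries, and CCDC142 was at 1.62, 2.20 and 6.14 FPKM in the same libraries. The low MRPL53 value and the high CCDC142 value thus fell in control siRNA replicate 3. The summed level of MRPL53 and CCDC142 was 36.9, 37.2 and 29.1 FPKM in control libraries, so it was also lowest in that replicate. MRPL30 was at 1.399, 1.64 and 1.43 FPKM and then 0.953, 1.39 and 1.94 FPKM, and the overlapping AC079447.1 was at 0.635, 0.362 and 0.756 FPKM and then 1.03, 1.09 and 0.370 FPKM. Among the SF3B4 siRNA libraries AC079447.1 was lowest in replicate 3, where MRPL30 was highest, and among the control libraries it was lowest in replicate 2, where MRPL30 was also highest.

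MRPL34 and MRPL36, homologues of bacterial L34 and L36, and the mitochondria-specific MRPL49 had the widest intervals. MRPL34 was at 10.8, 10.4 and 11.8 FPKM in control and 9.50, 1.70 and 9.09 FPKM in SF3B4 siRNA libraries (limma adjusted p = 0.29). Every SF3B4 siRNA library was below every control library, and replicate 2 was far below the others. ABHD8, which overlaps MRPL34 on the opposite strand, was at 38.4, 40.6 and 44.5 FPKM and then 31.0, 24.2 and 30.6 FPKM. Its SF3B4 siRNA libraries were also all below its control libraries, with replicate 2 the lowest.

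MRPL36 was at 23.3, 6.36 and 23.2 FPKM in control and 11.4, 8.22 and 7.73 FPKM in SF3B4 siRNA libraries. Control siRNA replicate 2 stood below every SF3B4 siRNA library, and without it MRPL36 passed the test with a log2 fold change of -1.36 (limma adjusted p = 0.0031) in place of -0.74 (adjusted p = 0.34). MRPL49 was at 5.58, 6.27 and 18.1 FPKM and then 9.08, 9.86 and 4.70 FPKM. Its highest library was a control and its lowest an SF3B4 siRNA library, and the other 4 ran the opposite way. Libraries of 1 group differed by over 2-fold for 2 of the 76 tested members in control and 3 in SF3B4 siRNA libraries (2.63% and 3.95%), beside 3.70% and 3.44% of all genes tested.

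**Figure D3:**
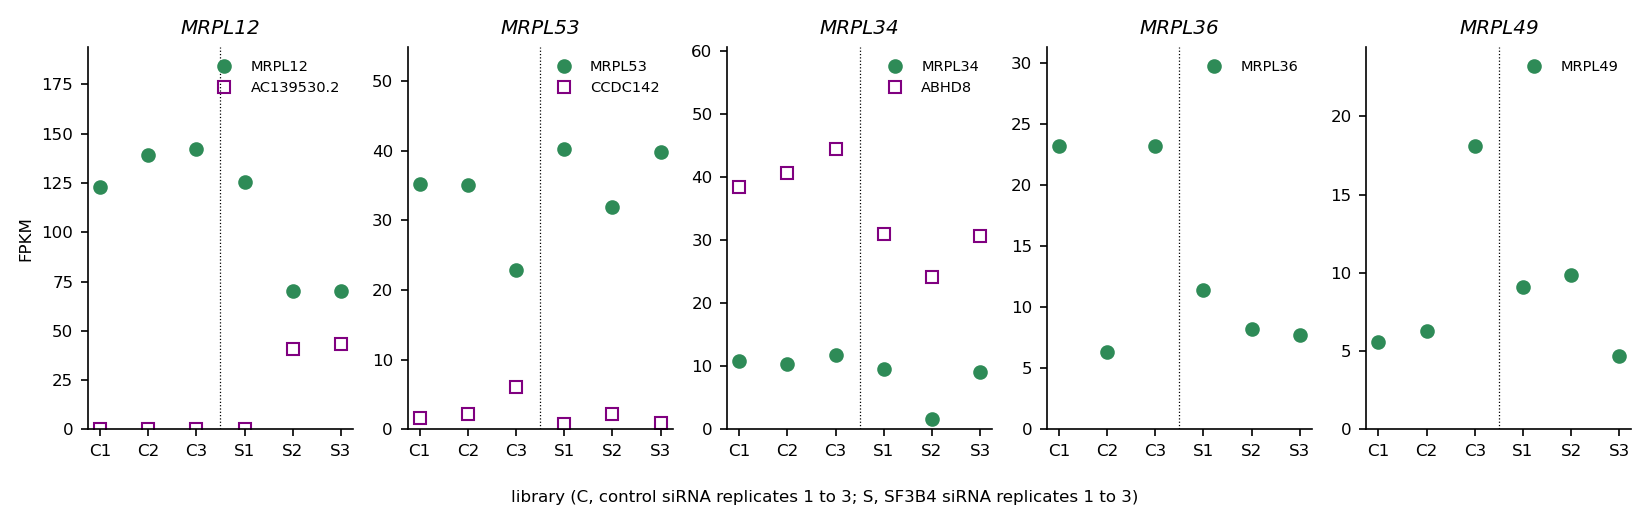
FPKM (y axis, linear from 0) of 5 large subunit genes in each library (x axis; C, control siRNA; S, SF3B4 siRNA), as green dots, with an overlapping gene as open squares in the first 3 panels. AC139530.2 appears in the libraries in which MRPL12 is low, and the fold changes of MRPL34, MRPL36 and MRPL49 each depend on single libraries. FAU and SYVN1, which overlap MRPL49 on the opposite strand, are not drawn.

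Many members start close to a gene on the other strand, a layout in which a single stretch of DNA can serve both starts. For 29 of the 78 members (37.2%) another protein-coding gene started within 1000 bases in the opposite direction, against 18.1% of 8475 tested protein-coding genes. In 17 of the pairings both genes were tested, with MRPS11 and MRPL46, which start 34 bases apart, counted from each side. In 3 the genes moved in opposite directions, in none in the same direction, in 4 only the member passed, in 5 only its partner and in 5 neither. Over all 1109 such pairings with both genes tested, 4.87% moved in opposite directions and 8.57% in the same direction, so 17 pairings are too few to set the members apart.

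The 3 opposed pairs were all of the large subunit. MRPL43 rose while TWNK, the mitochondrial DNA helicase, fell from 6.58, 6.05 and 6.02 FPKM to 4.85, 4.01 and 5.20 FPKM (limma adjusted p = 0.028). MRPL54 rose while APBA3 fell from 1.21, 1.27 and 1.38 FPKM to 0.885, 0.901 and 0.903 FPKM (adjusted p = 0.021). MRPL27 rose while EME1, a subunit of a DNA endonuclease, fell from 1.185, 1.209 and 1.198 FPKM to 1.01, 0.676 and 0.793 FPKM (adjusted p = 0.048). In each partner the groups did not overlap. The call was lost for TWNK without any library but SF3B4 siRNA replicate 3 (adjusted p = 0.055 to 0.074), for APBA3 without any but control siRNA replicate 1 (0.055 to 0.079) and for EME1 without any but SF3B4 siRNA replicate 1 (0.089 to 0.14). The call of MRPL27 was itself lost without any 1 library, that of MRPL54 without SF3B4 siRNA replicate 1 or 3, and the difference between the genes of a pair was not itself tested.

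An earlier look at these data had picked a pair of short words, GCCTTCA and CCTTCAA, as frequent in the 3′ UTRs of genes that fell, so their use here is descriptive. An annotated 3′ UTR of 12 of the 76 tested members held either word (9 large and 3 small subunit genes, 15.8%), against 20.4% of the tested genes with a 3′ UTR. Of the 12, MRPL22 and MRPL27 rose and MRPL13 and MRPS26 fell. Among all tested genes with a word 32.9% fell, and among those without 15.0%. The members have short 3′ UTRs, with a median longest form of 1418 bases in those with a word and 420.5 bases in those without, beside 2380 and 904.5 bases among all tested genes.

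The RNA partners of these proteins rose. MT-RNR2, the ribosomal RNA of the large subunit, was at 1654, 1521 and 1674 FPKM in control and 2825, 2636 and 2787 FPKM in SF3B4 siRNA libraries (log2 fold change 0.77 ± 0.06, limma adjusted p = 0.00016). MT-RNR1, that of the small subunit, was at 814, 766 and 850 FPKM and then 1168, 943 and 1094 FPKM (0.40 ± 0.09, limma adjusted p = 0.010). Every SF3B4 siRNA library was above every control library for both. The protein-coding transcripts of the same mitochondrial DNA did not follow: of 13, 7 fell and none rose, all 13 log2 fold changes were below 0, and their median log2 fold change was -0.27. Among those that fell were MT-ND6 (-0.61) and MT-ND3 (-0.44), subunits of complex I. The MT-ND6 call was lost without replicate 1 or 2 of either group (adjusted p = 0.093 to 0.13). No source used here gives how ribosomal RNA was depleted or messenger RNA selected, and the part of that step in the MT-RNR1 and MT-RNR2 levels was not tested.

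Genes that help build or run the mitochondrial ribosome changed in both directions. Of 5 tested mitoribosomal proteins with other symbols 1 rose, DAP3, a small subunit GTPase, from 5.21 to 6.41 FPKM in control to 6.97 to 7.58 FPKM in SF3B4 siRNA libraries. Of 26 tested assembly factors 6 rose and 1 fell. NGRN, which acts on the large subunit rRNA, fell from 19.8, 16.4 and 19.4 FPKM to 10.0, 10.2 and 11.3 FPKM (log2 fold change -0.81, limma adjusted p = 0.00090). The NGRN groups lay far apart. NSUN4, an rRNA methyltransferase (0.53), NDUFAB1, the mitochondrial acyl carrier protein (0.43), and SPG7, a subunit of the protease that matures MRPL32 (0.38), were among those that rose. DAP3 lost its call without any library but control siRNA replicate 1 (adjusted p = 0.091 to 0.14), SPG7 without any but SF3B4 siRNA replicate 3 (0.0545 to 0.12), and NSUN4 without control siRNA replicate 2 or 3 or SF3B4 siRNA replicate 1 or 3 (0.0575 to 0.082).

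Of 9 tested translation factors 1 rose and 1 fell. GFM2, which splits the ribosome after termination, was at 4.30, 3.57 and 3.77 FPKM in control and 1.94, 1.64 and 2.08 FPKM in SF3B4 siRNA libraries (-1.004, limma adjusted p = 0.0011). TACO1, a translational activator of MT-CO1, rose (0.28, adjusted p = 0.015). Of 18 tested genes for charging mitochondrial tRNAs 3 rose and 4 fell, among them the asparaginyl and leucyl enzymes NARS2 (-0.78) and LARS2 (-0.77), the methionyl enzyme MARS2 (-0.67) and the threonyl enzyme TARS2 (0.51). Of 17 tested genes for mitochondrial DNA expression and RNA processing 2 rose and 3 fell, among them TFB2M, a transcription initiation factor (-0.76), the DNA polymerase POLG (-0.45) and FASTKD5, an RNA processing protein (0.43). Of 5 tested regulators of nuclear mitochondrial genes PPRC1 fell (-0.41) and ESRRA rose (0.28). Calls that did not outlast the loss of 1 library were those of TACO1 (control siRNA replicate 3 or SF3B4 siRNA replicate 2 or 3, adjusted p = 0.050 to 0.051), TFB2M (any control library, 0.053 to 0.079), FASTKD5 (control siRNA replicate 3 or SF3B4 siRNA replicate 1 or 3, 0.059 to 0.071) and ESRRA (replicate 1 or 3 of either group, 0.053 to 0.098).

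The import machinery that carries the proteins into mitochondria changed at 7 of 19 tested genes, of which 4 rose and 3 fell. TOMM22 (0.73), TIMM23 (0.31), TOMM7 (0.31) and TIMM17B (0.31) rose, whereas TOMM5 (-1.04), TIMM17A (-0.93) and TOMM40 (-0.33) fell, all of them parts of the outer or inner membrane translocases. The call of TIMM23 was lost without replicate 2 or 3 of either group (limma adjusted p = 0.081 to 0.12), and that of TIMM17B without control siRNA replicate 3 (0.0501). As another set of ribosomal proteins, 7 of 80 tested cytosolic ribosomal protein genes rose and 6 fell, or 16.3%, with a median log2 fold change of 0.01. As another mitochondrial complex with mixed genomes, the nuclear complex I subunits had 13 of 36 tested genes higher and 2 lower, with a median of 0.25. These shares stand beside 34.1% for all genes tested, and no test between the lists was run.

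**Figure D4:**
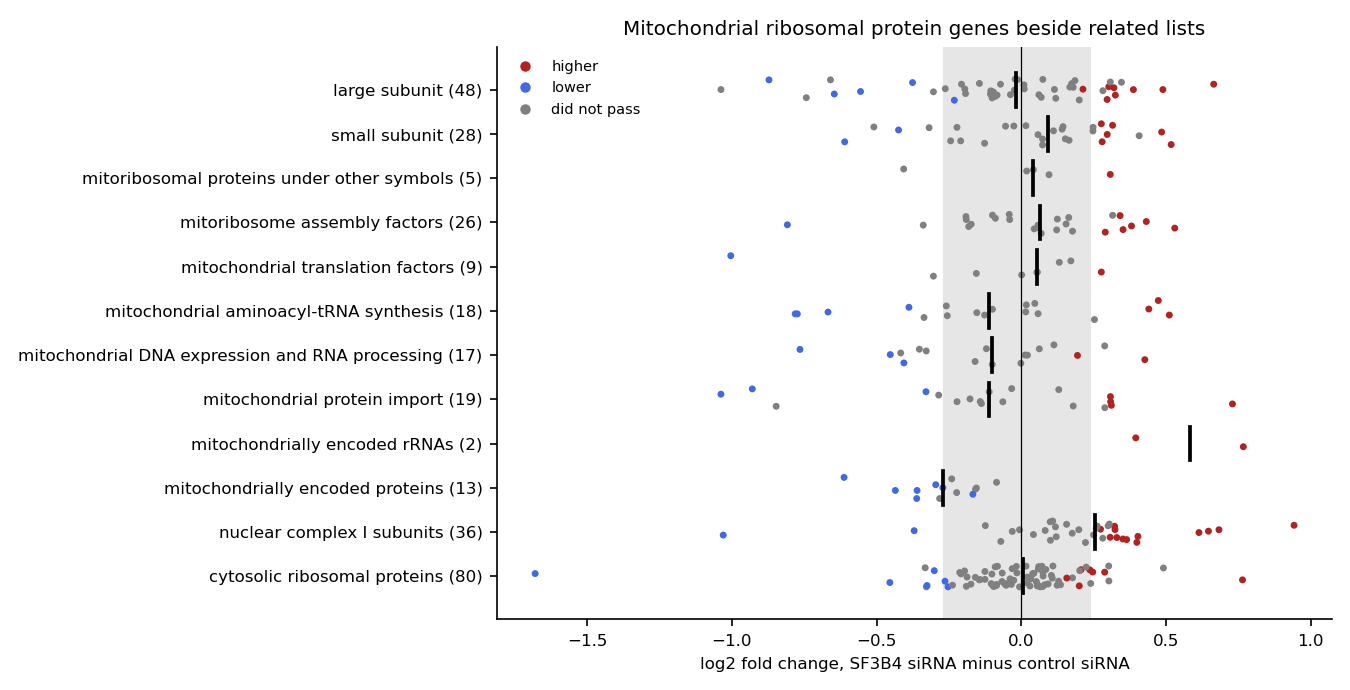
Log2 fold change (SF3B4 siRNA minus control siRNA, x axis) of each tested gene of the family and of related lists, with the number tested in brackets, black bars at the medians and a grey band for the middle 50% of all tested genes. Red dots rose, blue dots fell and grey dots did not pass; the subunit medians (-0.02 and 0.09) lie inside the band, and both mitochondrially encoded rRNAs lie to its right.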

How the data were processed

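The authors deposited 1 table of FPKM values per library, per the file headers. The submitters' processing notes name HISAT2 2.0.4, StringTie 1.3.0 and the GRCh38 build, with no roles, and no source used here gives the annotation or the strand setting. The 6 libraries were grouped by their titles. Identifiers were matched to symbols with the reference gene name table (49659 of 50868) and placed with GENCODE 29 on GRCh38. Tests used log2(FPKM + 0.1) in limma 3.58.1 (R 4.3.3) with empirical Bayes trend and robust settings, on genes with at least 1 FPKM in at least 3 of 6 libraries, and p-values were adjusted by Benjamini-Hochberg over the 9685 genes tested. Fold changes on this scale understate those of low genes. The fit was tested on simulated data first. Depth was read from the steps between low FPKM values (over 99% of those checked were whole multiples within 0.02), and covers counting error only.

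The members, the related lists and the short words searched in 3′ UTRs were chosen with earlier results of these data known. The genes named were, in each subunit, up to 6 rises and 6 falls past the test (those with the largest change), the 3 with the highest mean, those not tested and those on which a second gene bears; in the lists, up to 4 past the test with the largest change. MRPL22, MRPL27, TOMM7, TIMM23, TIMM17B and members close to the threshold were named after their values were seen, as were the grouping by function, the pairs of adjacent starts and the promoters shown. The alternatives were 2 other pseudocounts, 2 other filters, 3 other scalings, limma without trend and robust settings, a minimum fold change of 1.2, a replicate block and leaving out each library.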

Additional observations from a re-analysis of the deposited data

How the results depend on the processing

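Of the 21 members past the test, all kept their direction in each of the 16 alternatives, and 3 kept their call in all of them (12 with the minimum fold change set aside). The counts of genes higher and lower were 4 to 7 and 4 to 6 in the large subunit when 1 library was left out, and 2 to 6 and 2 to 3 in the small subunit. The medians then ran from -0.02 to 0.02 and from 0.062 to 0.15 on the log2 scale. With 1 library left out, 25.3% to 32.0% of all genes tested passed, against 34.1% with all 6 libraries. With no filter on low values, 4 large and 3 small subunit genes rose, and the small subunit median was 0.11. That median was 0.073 with a mean FPKM of at least 5, 0.11 after rescaling to TPM, 0.13 after quantile normalization and 0.13 after centring on the median gene. The median over all genes tested moved as well, to 0.020, 0.015, 0.028 and 0.036 in the same order, from -0.0035 in the main fit. Against a minimum fold change of 1.2, 1 large subunit gene rose and 1 fell, and 0 small subunit genes rose and 1 fell (limma; at an unadjusted p under 0.05, 2 rose and 1 fell). MRPL49, at -0.20, ran from -0.50 to 0.34 with 1 library left out, and was positive without control siRNA replicate 3 (0.34) or SF3B4 siRNA replicate 3 (0.14). MRPL30, at -0.11, ran from -0.34 to 0.14 and was positive without SF3B4 siRNA replicate 1 (0.14). Of the 33 other genes named with a call, 19 kept it whichever 1 library was left out, and none changed direction in any alternative. SF3B4 kept its call in all of them. Apart from the settings that change the genes or libraries used, the cause of these shifts was not tested.

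Replicate numbers did not pair the libraries: deviations from the group means correlated at -0.08, 0.02 and -0.12 between libraries with the same number. With the replicate number as a block, 5 large subunit genes rose and 4 fell, 6 small subunit genes rose and 2 fell, and 1290 of all genes rose and 1537 fell, against 1546 and 1752 without it. Counts over all genes also fell with no filter (1190 higher, 1475 lower of 24450) and against the minimum fold change (420 and 693). Of the control libraries, replicate 1 had its highest correlation with SF3B4 siRNA replicate 3, not with its own number.

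At this depth a transcript of 1 kilobase at 1 FPKM rests on about 18 fragments, and a longer one on more. This can limit the precision for MRPL42 and MRPS31 and for members near 1 FPKM such as MRPL1 and MRPS22. Within a group, libraries of MRPL42 differed by up to 1.19-fold and those of MRPS31 by up to 1.48-fold.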
